A study of Mus musculus with 8 samples.

Results

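Ncmap, Mbp, Prx, Pmp22, Sox10, Erbb3 and S100b are genes by which Schwann cells and their myelin are recognised, and 4 of these 7, Ncmap, Pmp22, Mbp and Prx, were measured among 12148 genes in dental pulp of mouse molars at postnatal day 7 (P7). The 7 genes were chosen by name with their genotype difference in these libraries already known, and the study's own list of axon genes altered in the same libraries holds Ncmap and Mbp. Their genotype differences are therefore given as a description and carry no test. Sox10, Erbb3 and S100b were not analysed here.

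The 8 RNA-Seq libraries came from mandibular first molars of C57BL/6J mice, and the question of the study was how loss of Tgfbr2, the type II receptor for transforming growth factor beta, in the pulp mesenchyme affects the growth of axons into the tooth. The 4 Osterix-Cre control libraries came from mice with a Cre transgene that the Osterix promoter drives, in odontoblasts and other cells of the dental mesenchyme. The 4 Tgfbr2cko libraries came from Osterix-Cre:Tgfbr2f/f mice, which carry the same Cre transgene together with 2 floxed Tgfbr2 alleles, so both groups express Cre and only the mutants can lose the receptor. Mineralized tissue and enamel organ had been taken off the pulp, the left and right molars were combined, and RNA with an integrity number above 7 was amplified from a low input. Cells that never express Cre keep the receptor gene in this model.

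Myelinating Schwann cells wrap axons of the peripheral nervous system in a sheath of stacked membrane. Sox10 sets up and maintains the lineage, Erbb3 with its partner Erbb2 receives the axonal growth factor neuregulin, and Egr2 switches on the myelin genes. The sheath has a compact part, held together by proteins such as Pmp22 and Mbp, and a noncompact part at the paranodes and incisures, where Ncmap is found, while periaxin, the product of Prx, anchors the outer membrane to the basal lamina through Drp2 and dystroglycan. Most nerve fibres that enter the pulp are thin sensory fibres of the trigeminal nerve, and they lose or lack myelin along much of their course in the tooth.

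Promoter sequence is shown for Ncmap and Prx, the genes whose values did not overlap between the genotypes, and for Pmp22, whose values were alike, because the receptor under study acts on transcription through SMAD proteins. The windows hold the 250 bases before each start in RefSeq on GRCm38.p6, read 5′ to 3′ on the strand of the gene. Ncmap, Pmp22 and Prx, 3 of the 4 measured genes, matched the RefSeq table, with 2, 4 and 1 starts, and Mbp did not match. Capitals mark TGTCTG, the reverse complement of the SMAD motif CAGACA.

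Ncmap start 1, minus strand, chr4:135398228-135398477: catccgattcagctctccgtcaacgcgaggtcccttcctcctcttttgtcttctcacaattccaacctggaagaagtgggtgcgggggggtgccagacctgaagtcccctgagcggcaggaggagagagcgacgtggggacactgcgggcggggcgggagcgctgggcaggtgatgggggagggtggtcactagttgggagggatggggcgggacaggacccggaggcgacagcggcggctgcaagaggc

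Ncmap start 2, minus strand, chr4:135385673-135385922: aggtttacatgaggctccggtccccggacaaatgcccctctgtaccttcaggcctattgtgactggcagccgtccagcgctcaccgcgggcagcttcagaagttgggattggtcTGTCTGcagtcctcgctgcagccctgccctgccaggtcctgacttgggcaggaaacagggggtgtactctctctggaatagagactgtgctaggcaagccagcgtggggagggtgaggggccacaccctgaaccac

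Prx start 1, plus strand, chr7:27499074-27499323: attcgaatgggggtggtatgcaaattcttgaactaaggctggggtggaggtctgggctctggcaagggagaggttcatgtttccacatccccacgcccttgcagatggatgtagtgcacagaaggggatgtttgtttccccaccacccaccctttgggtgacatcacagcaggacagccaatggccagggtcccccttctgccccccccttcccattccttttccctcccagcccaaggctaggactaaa

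Pmp22 start 1, plus strand, chr11:63128732-63128981: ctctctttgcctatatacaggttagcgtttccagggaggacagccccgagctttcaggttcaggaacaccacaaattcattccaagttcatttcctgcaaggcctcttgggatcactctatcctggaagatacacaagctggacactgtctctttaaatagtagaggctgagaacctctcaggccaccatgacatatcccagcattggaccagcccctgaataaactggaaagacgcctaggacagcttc

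Pmp22 start 2, plus strand, chr11:63131207-63131456: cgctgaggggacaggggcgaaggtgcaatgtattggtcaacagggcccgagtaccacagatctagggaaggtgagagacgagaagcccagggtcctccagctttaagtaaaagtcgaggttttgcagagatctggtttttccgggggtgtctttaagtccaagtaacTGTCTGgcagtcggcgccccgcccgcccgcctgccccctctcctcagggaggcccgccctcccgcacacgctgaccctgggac

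The first Ncmap window, the Prx window and the first Pmp22 window lie outside annotated genes, whereas the second windows of Ncmap and Pmp22 lie in introns of the genes themselves. The windows of Pmp22 starts 3 and 4 were searched but are not shown. That of start 3 lies in an intron of Pmp22, and that of start 4 overlaps a Pmp22 exon. Both strands of each window were searched for the SOX motifs ACAAAG and ACAATG, the EGR motifs GCGTGGGCG and GCGGGGGCG, the SMAD motifs GTCTAGAC and CAGACA, and the TATA motif TATAAA. A SMAD match stood 136 to 131 bases before the second start of Ncmap, and another 83 to 78 bases before the second start of Pmp22. No other motif was found in any of the 7 windows of these genes. Over 32536 RefSeq promoter windows of this length, 25.0% held a SOX motif, 3.09% an EGR motif, 17.1% a SMAD motif and 12.3% the TATA motif. Which start was used in the pulp was not measured.

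Between 8682872 and 13539670 reads per library were counted on the 12148 genes, and the deposited values are log2 CPM (counts scaled to a common library size), with 0.5 added to each count. Names of libraries use the last number of their titles, which is 49 to 52 in the controls and 53 to 56 in the mutants. A second number in the titles is shared by several libraries, and the labels do not say whether libraries are separate animals, so p-values measure only the spread between these libraries. Library 56 stood apart, since the enamel matrix genes Amelx and Ambn took 18.5% of its reads and between 0.326% and 2.74% in the other libraries, and results that rest on it are given with and without it. Tgfbr2 itself, the targeted gene, had log2 CPM of 7.16, 7.62, 7.64 and 7.52 in the controls against 7.02, 7.00, 7.16 and 7.61 in the mutants. The genotypes overlapped for Tgfbr2, with a log2 difference of -0.29 ± 0.17 (SE, n = 4 per genotype; limma p = 0.119, adjusted p = 0.79; exact permutation p = 0.143). Without library 56 its difference was -0.42 and without library 49 it was -0.39, with unadjusted limma p of 0.0136 and 0.0411 in these fits over all genes. Counts per gene do not separate the deleted part of Tgfbr2 from the rest, and the share of cells that kept the gene was not measured.

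Ncmap, the noncompact myelin associated protein, differed more between the genotypes than Pmp22, Mbp or Prx. Its log2 CPM was 5.98, 5.60, 5.76 and 6.24 in control libraries 49 to 52, against 3.09, 4.0, 4.23 and 4.23 in mutant libraries 53 to 56. Every mutant library lay below every control library, with a gap of 1.37 between the lowest control and the highest mutant. The means were 5.89 ± 0.28 and 3.89 ± 0.54 (SD, n = 4 each), a log2 difference of -2.01 ± 0.25 (SE), which is 4.02-fold lower in the mutants. In reads, the controls held 617, 469, 515 and 772, and the mutants 75, 196, 163 and 253, so none of these values rests on a handful of reads. Only 21 of the 12148 genes had a larger fall on the log2 scale. Without library 56 the difference was -2.12, and without library 53, the lowest mutant, it was -1.74. The gene (ENSMUSG00000043924.16) spans chr4 135369576 to 135398227 on the minus strand of GRCm38.

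Prx, which encodes periaxin, was lower in the mutants by a smaller amount. Its log2 CPM was 3.06, 3.23, 3.59 and 2.98 in the controls, against 2.88, 2.60, 2.92 and 1.90 in the mutants. The genotypes did not overlap, but the gap between the lowest control, library 52, and the highest mutant, library 55, was 0.06. The means were 3.21 ± 0.27 and 2.57 ± 0.47 (SD, n = 4 each), and the log2 difference was -0.64 ± 0.27 (SE), or 1.56-fold lower. Library 56 had the lowest value, and the difference was -0.41 without it, so this library moved the value by more than 1.5 times. Between 50 and 114 reads per library stood behind these values. The gene (ENSMUSG00000053198.13; chr7 27499324 to 27520214, plus strand) shares 300 exonic bases, 5.38% of its exon length, with the antisense gene Gm15541, and whether the counting used strand is not given in the sources used here. Ncmap and Prx are the 2 of 4 measured genes whose values did not overlap between the genotypes, both lower in the mutants, where 5.27% of all genes had values that did not overlap.

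Mbp, which encodes myelin basic protein, stood in the other direction. The gene also gives rise to golli proteins from an upstream start, which are known in immune cells, and counts per gene do not separate these transcripts. Its log2 CPM was 3.95, 3.16, 3.37 and 3.39 in the controls, against 3.93, 4.10, 4.13 and 4.02 in the mutants. The mutants lay close together, the controls 50 to 52 lay below them, and control library 49 lay among the mutants, so the genotypes overlapped through that library. The means were 3.47 ± 0.34 and 4.04 ± 0.09 (SD, n = 4 each), a log2 difference of 0.57 ± 0.21 (SE), which is 1.49-fold higher in the mutants. Without library 49 the difference was 0.73. Reads per library ran from 86 to 219, and the gene (ENSMUSG00000041607.16) spans chr18 82475146 to 82585637 on the plus strand, with 16 annotated transcripts.

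Pmp22, the peripheral myelin protein that is also made by many cells other than Schwann cells, was alike in both genotypes. Its log2 CPM was 7.35, 7.60, 6.88 and 6.78 in the controls, against 7.37, 7.08, 6.78 and 7.25 in the mutants. The mutant values all lay within the range of the controls or level with its lower end, with library 50 highest of all and libraries 52 and 55 lowest. The means were 7.16 ± 0.39 and 7.12 ± 0.26 (SD, n = 4 each), and the log2 difference of -0.04 ± 0.20 (SE) was smaller than its error. Its sign was not fixed, and it ran from -0.16 to 0.11 when single libraries were dropped. Pmp22 (ENSMUSG00000018217.12; chr11 63128982 to 63159547, plus strand) had 952 to 2062 reads per library, the most of the 4 genes.

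**Figure D1:**
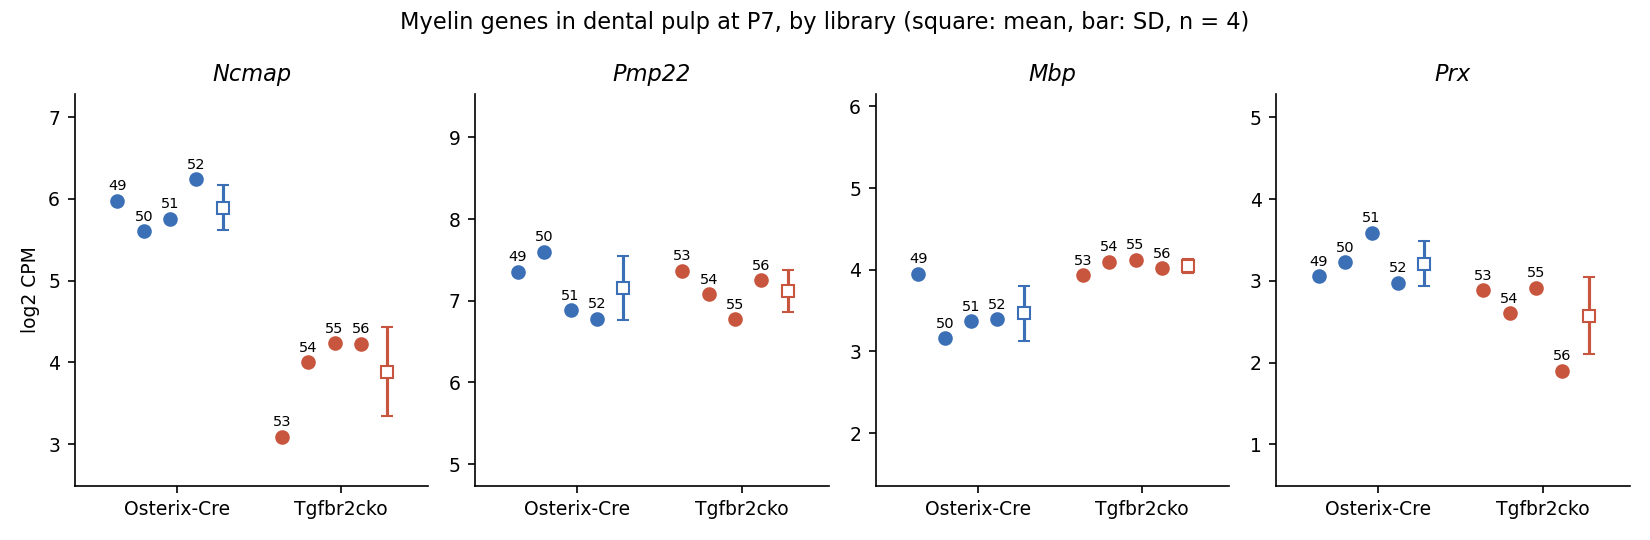
Log2 CPM of Ncmap, Pmp22, Mbp and Prx (vertical axes of equal height in log2 units, but not the same range) in each library, numbered 49 to 56, with Osterix-Cre in blue and Tgfbr2cko in red; open squares are means and bars are SD (n = 4). Ncmap shows a gap of 1.37 between the genotypes, Prx a gap of 0.06, Mbp overlaps through library 49, and the Pmp22 values of the genotypes overlap throughout.

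The median of the 4 log2 differences was -0.34, and that of all 12148 genes was -0.01. Of the 4 genes, 1 was far lower, 1 lower, 1 higher and 1 alike. They were chosen with their differences known, so neither the median nor the split in direction is a result about them as a group. The libraries with title number 2, which are control 51 and mutants 54 and 55, gave differences of -1.64 for Ncmap, -0.83 for Prx, 0.74 for Mbp and 0.04 for Pmp22, and 1 control carries that number, so its spread is unknown. With the mean level of enamel matrix genes as a further term in the model, the differences were -2.18 for Ncmap and -0.46 for Prx. In bulk RNA, fewer cells of a type and less RNA per cell cannot be told apart.

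Levels can be compared between the genes only per exon length, as CPM per kb of exon. In the controls Pmp22 was highest at 62.2 ± 16.9 (SD, n = 4), Ncmap followed at 27.1 ± 5.27, and their ranges did not overlap. Prx at 1.68 ± 0.33 and Mbp at 1.33 ± 0.34 were far lower and did not differ from each other beyond their spread. In the mutants Pmp22 stood at 59.7 ± 10.2, Ncmap at 6.95 ± 2.18, Mbp at 1.94 ± 0.12 and Prx at 1.1 ± 0.31, and here the ranges of Mbp and Prx did not overlap. The order of Mbp and Prx depends on the length used, since the exons of all 16 Mbp transcripts add up to 8469 bases. Divided by mean transcript length instead, the control means were 134 for Pmp22, 52.5 for Ncmap, 7.32 for Mbp and 1.96 for Prx. Of other sheath genes, Cnp stood at 16 and Drp2 at 3.16 CPM per kb of exon in the controls.

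**Figure D2:**
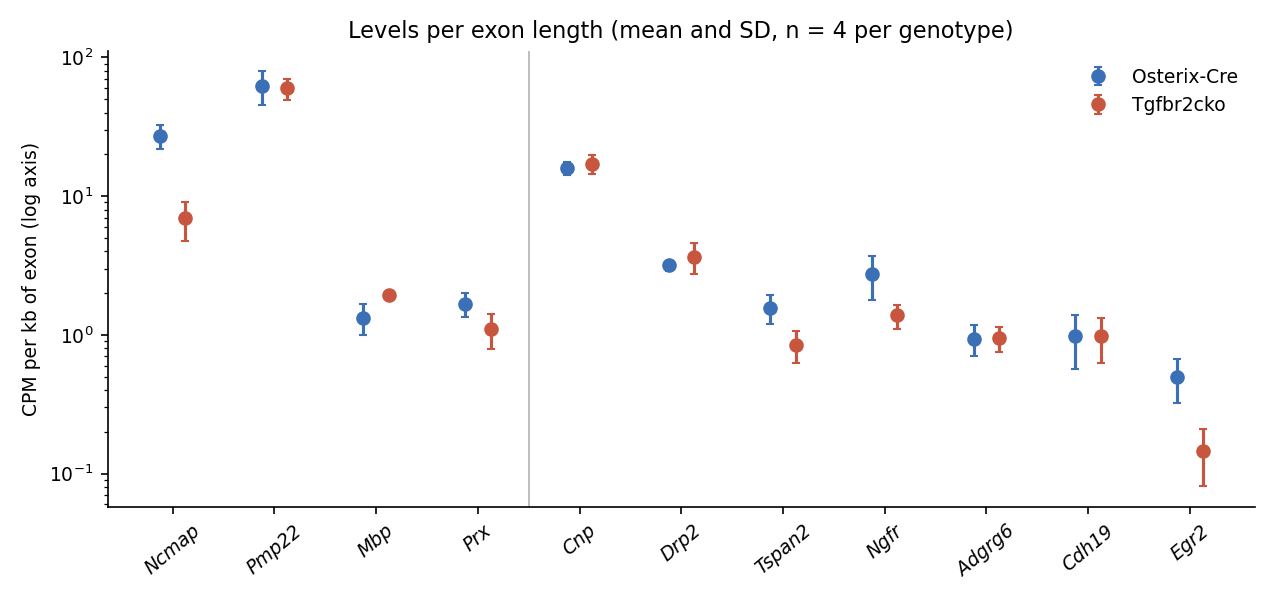
CPM per kb of exon (log axis) for the 4 myelin genes, left of the line, and 7 other genes of the Schwann lineage, with mean and SD over 4 Osterix-Cre libraries (blue) and 4 Tgfbr2cko libraries (red). Pmp22 and Ncmap lie far above Mbp and Prx in the controls, and Ncmap in the mutants stands at 6.95, below Cnp.

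The tissue was checked against markers of the cells that could hold these transcripts. Of 12 Schwann cell markers, among them the 7 genes themselves, 8 had a value, and Sox10, S100b and Erbb3, which best define the cell, were not analysed here. Summed over the 8, the level ran from 222 to 287 CPM in the controls and from 168 to 215 CPM in the mutants, and most of that sum was Pmp22 and Ncmap. Because the defining markers have no value, the 4 genes are called myelin genes here and not a measure of Schwann cells. None of 6 oligodendrocyte markers had a value. Odontoblast markers (6 of 6) summed to between 47700 and 101786 CPM in the controls and between 29170 and 62875 in the mutants, and endothelial markers (6 of 6) to 233 to 333 and 199 to 271 CPM. Melanocyte markers (3 of 7, with Tyr, Dct, Mlana and Tyrp1 not among them) ran from 142 to 243 and from 108 to 212 CPM, and markers of blood and immune cells (6 of 9) from 847 to 1465 and from 782 to 2116 CPM. Library 56 gave the mutant extremes for odontoblasts and melanocytes, which were their lowest, and for blood and immune cells, whose next highest mutant stood at 939 CPM. Enamel organ markers (7 of 7) reached 193232 CPM in library 56 and 29465 in the next highest mutant, against 3965 to 23284 in the controls. Of skeletal muscle 1 of 6 markers had a value, between 1.47 and 5.20 CPM over all libraries, and of adipocytes 0 of 4. Their part in the differences of Ncmap, Prx and Mbp was not tested.

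The other genes of the pathway were read from 7 lists, which leave out the 7 genes above and of which 75 of 125 genes had a value. A gene was counted as altered, by the threshold of the study, at an unadjusted limma p under 0.05 and at least 1.5-fold. At that threshold 10 of the 75 were altered, 2 higher and 8 lower, which is 13.33% beside 5.77% of all genes. None of the 75 had an adjusted p under 0.05 in limma, nor with voom weights on the recovered reads, against 0.947% of all genes. In limma 12 of the 75 had an unadjusted p under 0.05, beside 1018 of all 12148 genes. Without library 56, 9 were altered, 4 higher and 5 lower, and the enamel covariate gave the same counts. The lists were chosen with earlier results of these data known.

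Among myelin sheath genes, 1 of 7 measured was altered, and the median log2 difference was 0.18, beside -0.01 over all genes. Tspan2, a tetraspanin of myelinating glia, had log2 CPM of 2.36, 2.95, 2.95 and 3.22 in the controls against 1.58, 2.42, 1.86 and 2.11 in the mutants. The genotypes overlapped only through control 49 and mutant 54, and the log2 difference was -0.88 ± 0.28 (SE; limma p = 0.00764, adjusted p = 0.233; exact permutation p = 0.0571). Cnp, an enzyme of noncompact myelin, differed by 0.09 ± 0.16, and Drp2, the partner of periaxin, by 0.18 ± 0.20 (adjusted p of 0.998 and 0.971 in limma). Mag was not analysed here. Gldn, which takes part in forming the nodes of Ranvier, was at 4.31 and 4.26 in mutants 53 and 54 and at 2.78 and 2.25 in mutants 55 and 56, and it was altered, at a log2 difference of 0.89, when library 56 was left out, but not when any other single library was, and at 0.96 with the enamel covariate.

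Among transcription factors of the Schwann lineage, 1 of 11 measured was altered, with a median log2 difference of -0.08. Egr2, the switch for myelin genes, had 11, 15, 24 and 16 reads in the controls against 4, 10, 3 and 5 reads in the mutants. Its log2 CPM was 0.23, 0.68, 1.37 and 0.69 against -0.98, -0.23, -1.31 and -1.30, with no overlap. The log2 difference was -1.70 ± 0.45 (SE; limma p = 0.00235, adjusted p = 0.121), and the exact permutation p of 0.0286 is the smallest that 4 against 4 allows. The call held at an unadjusted p under 0.05 in each of the 8 fits that left out 1 library, but at these read counts the size of the difference depends on the value added to each count, and with 5 added it was -1.16. The other measured factors, from Nab1 and Nab2, which work with Egr2, to Jun, which marks dedifferentiated Schwann cells, lay between -0.34 and 0.37. Pou3f1 was not analysed here.

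Among surface and secreted genes of Schwann cells and their precursors, 3 of 13 measured were altered, all lower, and the median was -0.14. Ngfr, the low-affinity neurotrophin receptor of immature Schwann cells and of some mesenchyme, had log2 CPM of 2.80, 3.62, 3.65 and 2.66 in the controls against 1.96, 2.56, 2.07 and 2.38 in the mutants. The genotypes did not overlap, and the log2 difference was -0.94 ± 0.29 (SE; limma p = 0.00636, adjusted p = 0.214; exact permutation p = 0.0286). Ednrb, the endothelin receptor of neural crest cells, differed by -0.66 ± 0.24 (limma p = 0.0148, adjusted p = 0.327; exact permutation p = 0.0571), with overlap. It was no longer altered without library 50, at -0.50, without library 56, at -0.52, or with the enamel covariate, at -0.49. Cdh19, a cadherin that is a common marker of the Schwann lineage, differed by 0.01 ± 0.39 and Adgrg6, a receptor needed for myelination, by 0.01 ± 0.24, and the sign of both was not fixed. Gap43, a growth-associated protein of axons and immature Schwann cells, was likewise altered when library 56 was left out and for no other single library, at a log2 difference of 0.62, and at 0.59 with the enamel covariate. Dhh was not analysed here.

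**Figure D3:**
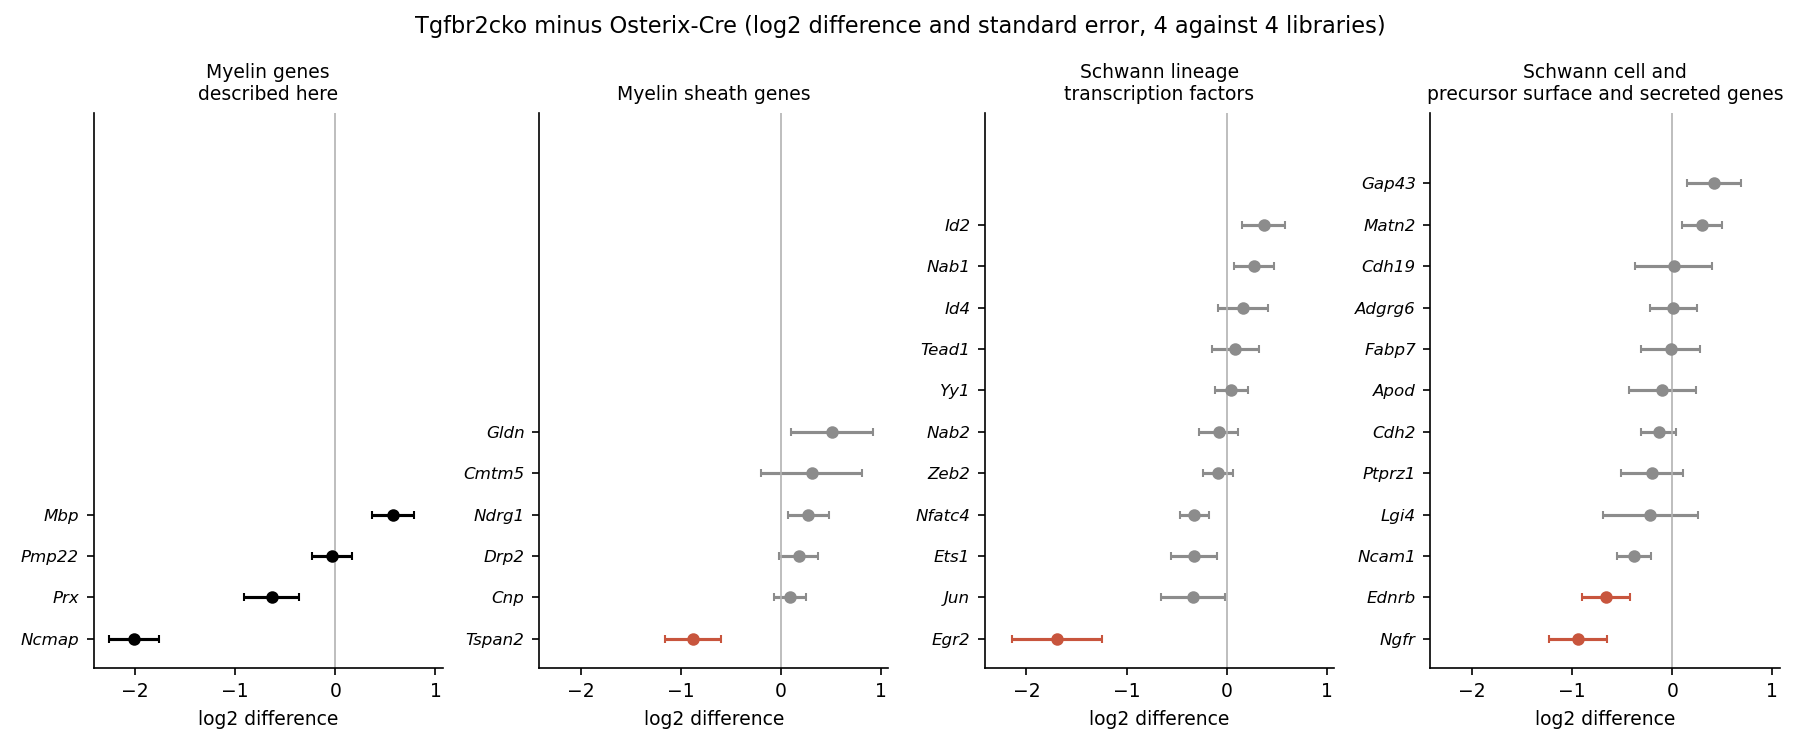
Log2 difference, Tgfbr2cko minus Osterix-Cre, with its standard error (4 against 4 libraries), for the 4 myelin genes (black, not tested) and for genes of 3 Schwann lineage lists, red where a gene was altered at an unadjusted limma p under 0.05 and at least 1.5-fold and grey otherwise. Ncmap at -2.01 and Egr2 at -1.70 lie farthest from 0, Mbp lies above 0, and most other genes lie within 0.5 of 0.

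No gene of neuregulin and ErbB signalling was altered among 14 measured, where limma gave 0 with an unadjusted p under 0.05 and the median was 0.00. Erbb2, which pairs with Erbb3, differed by 0.18 ± 0.18 (SE; limma p = 0.319, adjusted p = 0.954; exact permutation p = 0.4), and Nrg1 was not analysed here. Among genes of the basal lamina and the dystroglycan complex, to which periaxin ties the Schwann cell membrane, 3 of 17 were altered and the median was 0.05. Itga6, a laminin receptor subunit also found on epithelium, was at 4.57, 4.17, 4.41 and 4.62 in the controls against 4.94, 5.27, 5.39 and 6.16 in the mutants, and it had the lowest adjusted p of the 75 genes. Its log2 difference was 1.00 ± 0.23 (limma p = 0.000931, adjusted p = 0.0724; exact permutation p = 0.0286), highest in library 56 and 0.76 without it, and its adjusted p fell to 0.0210 without library 53. Itga7, a laminin receptor subunit of muscle and nerve, differed by -0.84 ± 0.24 (limma p = 0.00374, adjusted p = 0.155; exact permutation p = 0.0286), with all mutants between 1.68 and 1.81 and all controls between 2.42 and 2.78. Sntb1, a syntrophin, differed by -0.64 ± 0.29 (limma p = 0.0423, adjusted p = 0.56; exact permutation p = 0.143), and it was not altered without library 50, 51, 52, 54 or 56, with -0.41 without library 56, nor with the enamel covariate, at -0.47. Dag1, which encodes dystroglycan, differed by 0.10 ± 0.18, with a sign that turned when library 49 was left out.

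S100b belongs to a family of calcium-binding proteins, and of 8 measured S100 genes 1 was altered. S100a8, a gene of neutrophils and not of Schwann cells, had 3 to 77 reads per library and a log2 difference of -1.75 ± 0.71 (SE; limma p = 0.0295, adjusted p = 0.46; exact permutation p = 0.114), with log2 CPM of 2.52 in mutant 56 against -1.31 to 0.14 in the other mutants. Without library 56 it was -2.53 (adjusted p = 0.0362), and without 49, 51, 53, 54 or 55 it was no longer altered. Of 5 measured axon genes 1 was altered. Tac1, the precursor of the sensory neuropeptide substance P, had log2 CPM of 3.91, 2.30, 3.81 and 1.62 in the controls against 5.05, 3.86, 3.89 and 3.96 in the mutants, a difference of 1.28 ± 0.47 (limma p = 0.0166, adjusted p = 0.347; exact permutation p = 0.0857), which was no longer altered without library 50 or 52. With title number as a block the Tac1 difference was 0.06. Tubb3, the neuronal tubulin that was used to stain axons, differed by 0.30 ± 0.32 (limma p = 0.355, adjusted p = 0.964; exact permutation p = 0.514), with values from 5.14 in library 53 to 6.98 in library 56. Without library 56 its difference was -0.0009, and without library 53 it was altered, at 0.61. The study stained the protein of Tubb3 and found less of it in mutant first molars at P7, while the values here are RNA of the pulp. It also states that the neuron bodies lie outside the teeth, so that only axons could bring neuronal RNA into the pulp. Innervation was not measured from these RNA values.

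Over the 8 libraries, correlations between the 4 myelin genes partly repeat the genotype differences, which were known when the genes were chosen. Pearson's r was -0.68 between Ncmap and Mbp, 0.52 between Ncmap and Prx, -0.62 between Mbp and Prx, and between -0.14 and -0.11 for Pmp22 with the others. These points share the genotype contrast. With the mean of each genotype subtracted, r was 0.36 for Ncmap and Mbp, -0.51 for Ncmap and Prx, and -0.57 for Ncmap and Pmp22. The libraries with more Ncmap within a genotype were thus not the ones with more Prx or Pmp22. Ncmap and Egr2 gave 0.81 over all libraries and -0.21 within genotypes.

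The 3 genes of closest pattern were named for each myelin gene by Pearson's r over the 8 libraries. For Ncmap they were Klk4, a protease of late enamel formation, at 0.984, Stac3, an adaptor known from skeletal muscle, at 0.972, and Cib3 at 0.969. Klk4 stood at 7.78, 7.26, 7.43 and 7.71 in the controls against 4.20, 4.53, 5.22 and 5.39 in the mutants, with the lowest value in library 53 as for Ncmap. Within genotypes r was 0.865 for Klk4, 0.905 for Stac3 and 0.716 for Cib3. For Prx they were Nrp1, a semaphorin and VEGF coreceptor, at 0.987, Hpgd at 0.980 and Fermt3, a kindlin of blood cells, at 0.964, and within genotypes Nrp1 gave 0.976. For Pmp22 they were Txndc17 at 0.978, Sdhb at 0.965 and Myl6b at 0.964. For Mbp they were Gm9855 at 0.974, Zfand1 at 0.954 and Slamf9 at 0.939. In control library 49, where Mbp reached the mutants, Gm9855 and Slamf9 were also at the highest values of the controls, at 2.28 and 1.77. None of the 12 genes was on the Schwann lineage or axon lists, and Klk4 is on the enamel organ list. In library 56, where the sum of that list was highest, Klk4 at 5.39 lay below every control. Within genotypes, Klk4 rose over the controls in the same order as the mean log2 of Amelx, Ambn and Enam. Among the mutants, both were highest in libraries 55 and 56. The part of enamel organ in the values of Klk4 and Ncmap was not tested. The r of these genes, over 8 points, are the highest among all genes measured, so they carry no p. Shared extreme libraries, such as 49 for Mbp and 53 for Ncmap, are part of these r and not a further result.

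**Figure D4:**
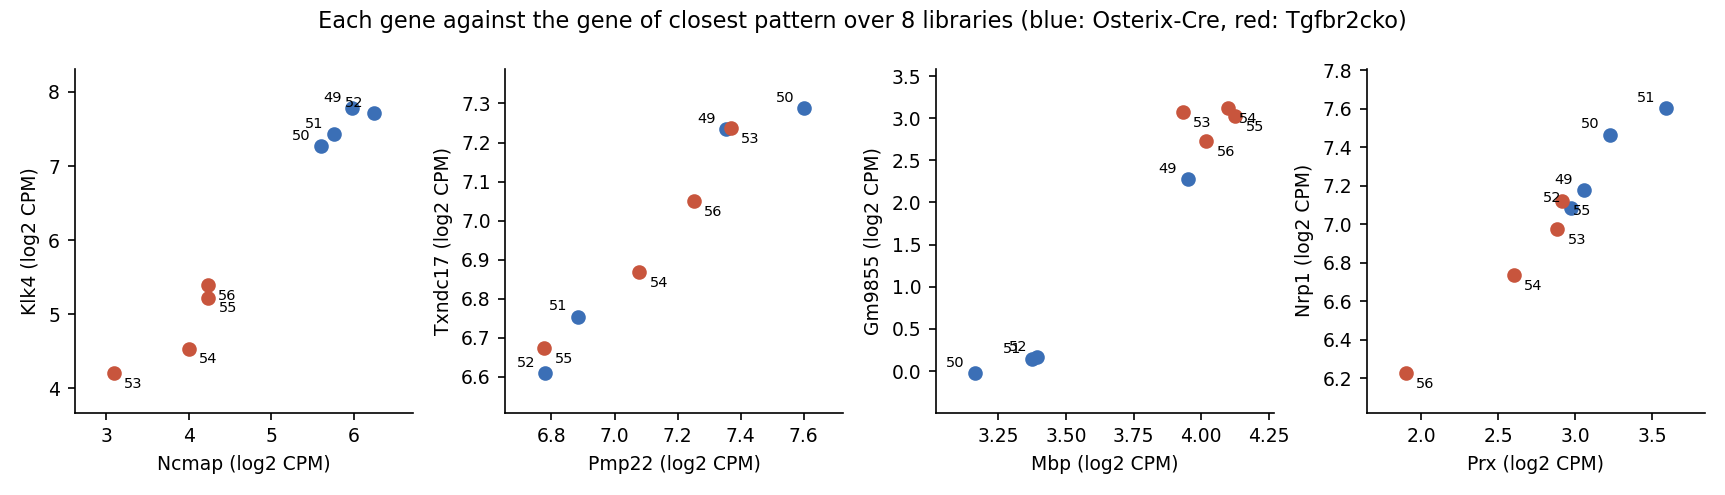
Log2 CPM of each myelin gene (horizontal) against the gene with the highest Pearson's r to it (vertical) in the 8 libraries, numbered 49 to 56, with Osterix-Cre in blue and Tgfbr2cko in red. The genotypes separate along both axes for Ncmap and Klk4, mix for Pmp22 and Txndc17, and control 49 lies near the mutants for Mbp and Gm9855.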

How the data were processed

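RNA-Seq of P7 dental pulp was analysed in 4 Osterix-Cre and 4 Tgfbr2cko libraries. Per the labels and the methods of the study, the authors trimmed reads with fastp 0.21.0, aligned them with HISAT2 2.1.0 to GRCm38.p5, counted them per gene with featureCounts of Subread 2.0.1, kept the genes listed as reliably quantifiable by the CLEAR workflow, and deposited voom log2 values of CPM. All 97184 values turned back into whole reads (largest distance 3.61e-08). The filter of the authors decides which genes have a value.

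Genotypes were compared on the deposited log2 values with limma 3.58.1 in R 4.3.3 (two-sided, intensity trend, 1 model over 8 libraries, Benjamini-Hochberg adjustment over 12148 genes), and single genes by an exact permutation test (two-sided, 70 arrangements). The script was tested on simulated data. Positions are from GENCODE M21 on GRCm38. Per-kb levels divide CPM by the joined exon length. The genes and lists were chosen with earlier results of these data known. Named genes were the 7 genes, Tgfbr2, set pathway genes, list genes with adjusted p under 0.05, the 3 largest differences among altered genes of each list, and the 3 genes of highest Pearson's r to each; Gldn, Gap43, Itgb4, Thy1, Id2, Nab1, Nab2 and Jun were named after their values were seen. Counts and medians of lists also cover a few genes that are not reported here by name.

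Alternatives were the fit without trend, library weights, voom weights, quantile normalization, median centring, genes with a mean log2 of at least 3, 5 added to each count, averaging libraries of one title number, an enamel covariate (the mean log2 of Amelx, Ambn and Enam), a title number block, a 2-fold threshold, mean transcript length and each library left out. Counting error is unlikely to be the only error, since amplified reads are not independent molecules. Figures were drawn with matplotlib 3.10.9.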

Additional observations from a re-analysis of the deposited data

Results flagged for a closer look

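Of 46 groups of 4 libraries examined, covering 23 genes, 1 held a library far from the others, where about 2.3 would be expected from a rule that marks 1 in 20. Tac1 in Tgfbr2cko library 53 was at a log2 CPM of 5.05, while the other 3 mutants lay between 3.86 and 3.96, so that the gap took 0.918 of the range of the group, more than Dixon's test allows for 4 values.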

How the results depend on the processing

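Over all genes, 256 were altered at 2-fold, and 258 had an adjusted p under 0.05 with library weights. The list genes altered numbered 5 among genes with a mean log2 of at least 3, which leaves Egr2, Ngfr, Tspan2, Itga7 and S100a8 out by construction. When single libraries were dropped, altered genes numbered 625 to 947, genes with an adjusted p under 0.05 numbered 65 to 165, and altered list genes 6 to 12. Ncmap stayed lower in every fit run, from -2.18 to -1.64, as did Prx, from -0.83 to -0.41, which the filter on mean log2 leaves out. Mbp stayed higher, from 0.47 to 0.74, and Pmp22 took both signs. Directions turned for Cdh19 (-0.0243 with voom weights, -0.0051 with 5 added, -0.25 to 0.31 with libraries left out), for Adgrg6 (-0.10 with library weights, -0.0424 with title numbers averaged, -0.0583 with the enamel covariate, -0.41 with a title number block, -0.0875 to 0.17 with libraries left out), for Tubb3 (-0.0257 with the enamel covariate, -0.0316 with a title number block, -0.0009 to 0.61 with libraries left out) and for Dag1 (-0.0526 to 0.17 with libraries left out), and the cause was not tested. Itgb4 was altered with title numbers averaged (0.86) and without library 53 or 54 (1.17 and 1.16), but it was highest in library 56 and differed by 0.34 without it. Thy1 was altered without 53 or 52 (-0.70 and -0.64) and differed by -0.35 without 56. Among list genes an adjusted p under 0.05 was reached by Egr2 and Itga7 without the trend, by Itga6 and S100a8 with library weights, and by Itga6 with title numbers averaged. The genotypes share only title number 2, and nothing says that it pairs libraries. A fit with title number as a replicate block, chosen after seeing the data, rests on control 51 against mutants 54 and 55. It called 313 genes altered and 0 at an adjusted p under 0.05 (315 at an unadjusted p under 0.05). Of the list genes it called 4, Egr2, Ngfr, S100a8 and Id2, altered, and the difference of Tac1 was 0.0635 in it. Depth limits Egr2 and S100a8, which fell to 3 reads in single libraries.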
